A study of Mus musculus with 10 samples.

Results

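The 10 genes described here are known targets of the androgen receptor, and they were followed in luminal epithelial cells of the mouse prostate through castration and testosterone replacement. They are Fkbp5, Tmprss2, Slc45a3, Steap4, Ndrg1, Abcc4, Pmepa1, Zbtb16, Homer2 and Camkk2, listed by name as genes that androgen is reported to regulate, with no threshold on a measured value. The choice was made with earlier results of these data known. Counts over the 10 beside all genes are therefore a description and no independent test. Each is read from the row of the deposited table that carries its symbol alone. All 10 were found, with 1 row each, among 30142 genes tested.

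The androgen receptor is a nuclear receptor that stays in the cytoplasm with Hsp90 chaperones until testosterone or dihydrotestosterone binds it. It then enters the nucleus, binds androgen response elements in DNA, often far from the start of the gene, and recruits coactivators. In the prostate it drives secretory differentiation, and much of what is known of its targets comes from human prostate cancer cells such as LNCaP, so that a role in mouse luminal cells cannot be assumed for every one of them.

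All mice were male, carried the Hoxb13-rtTA and TetO-H2BGFP transgenes and drank doxycycline at 2 mg/ml in the last 1 week, so that cells using the Hoxb13 promoter, a homeobox gene of the prostate lineage, made green fluorescent histone 2B. Fluorescent cells with CD24 and intermediate CD49f, and without CD45, F4/80 or CD11b, were sorted from 3 groups. Regenerated mice (n = 4) were castrated at 12 weeks of age, left to regress for 6 weeks and then carried testosterone implants for 4 weeks. Castrated mice (n = 3) had the same surgery and regression without testosterone, and intact mice (n = 3) were untreated, with no age at collection in the labels. Since no mice were castrated for the whole period without testosterone, hormone and time since castration cannot be told apart between regenerated and castrated arrays. The sort rests on the Hoxb13 promoter, and Hoxb13 itself was 9.47 ± 0.86 (SD, n = 4) in regenerated, 7.74 ± 0.20 (n = 3) in castrated and 10.39 ± 0.17 (n = 3) in intact arrays. The labels call the samples biological replicates without saying if RNA of several mice was pooled. The p-values therefore reflect only how far these samples spread, which may be technical.

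Values are log2 RMA intensities from 1 ClariomD (MTA-1.0) array per sample, and a difference of 1 is a doubling. They describe a gene across arrays and do not rank one gene against another. The luminal keratin Krt8 lay between 14.73 and 17.52 in every array, and the background controls at 3.03 (median), with 6.40 as their highest. That value came from a single array, and the highest in any other array was 5.58. The value of 6.40 is used below for every array. Of the leukocyte genes, Ptprc stayed at 3.55 to 3.76, while Cd68 reached 6.92 to 9.70 and Cd14 5.33 to 8.01. On the leading principal component (44.3% of variance over all genes) regenerated replicate 4 stood apart, at 3.03 against -31.0 to -23.2 for the other regenerated arrays. For the 10 genes, values without it are given where it moved a difference by over 1.5 times or changed a call. Markers of other cells were tested over whole lists. Limma called 2 of 8 basal, 2 of 9 myeloid, none of 7 lymphocyte, 1 of 9 stromal and none of 6 endothelial markers between castrated and intact arrays, and 2 lymphocyte and no endothelial markers had an unadjusted p under 0.05. Between regenerated and castrated arrays 1 basal and 1 lymphocyte marker were called lower, 1 stromal marker was called higher, and no myeloid marker (2 with an unadjusted p under 0.05) or endothelial marker (0) was called. Of 8 distal luminal markers, which include the androgen targets Msmb, Tgm4 and Pbsn, 4 were higher and 3 lower in castrated than intact arrays, and 4 were higher and 2 lower in regenerated than castrated arrays. Of 6 proximal luminal markers 1 was higher and 1 lower in castrated than intact arrays, and 1 was higher in regenerated than castrated arrays. For these and later lists, the shares called over all genes were 4.82% higher and 3.19% lower between castrated and intact arrays. Between regenerated and castrated arrays they were 1.97% higher and 3.01% lower. These shares include many genes that were dim in every group, and shares among brighter genes, given below as counts, were larger. In these comparisons 6236 and 5707 of all 30142 genes had an unadjusted p under 0.05. The proximal list's mean ran from 9.69 to 10.92 in regenerated, 9.17 to 9.82 in castrated and 9.00 to 9.29 in intact arrays. The mean level of the myeloid list ran from 4.45 to 5.24 in regenerated, 4.86 to 5.55 in castrated and 4.48 to 4.69 in intact arrays, and that of the basal list from 5.31 to 5.66 in regenerated, 5.77 to 5.98 in castrated and 5.37 to 5.59 in intact arrays. Among lymphocyte markers, Cd3e was 5.73 to 7.38 in regenerated, 8.26 to 11.76 in castrated and 5.40 to 8.18 in intact arrays. The other measured lymphocyte markers did not follow it. Over all arrays Cd3d stayed at 3.93 to 4.22 and Cd4 at 3.56 to 3.87, and none of the others exceeded 4.64, under the highest background value. The mean level of the seminal vesicle list, a gland beside the prostate, ran from 4.47 to 10.26 in regenerated, 6.36 to 6.54 in castrated and 6.90 to 9.88 in intact arrays, with none of its 6 genes called. Luminal keratins moved too, with Krt18 higher by 1.41 ± 0.18 log2 in castrated than intact arrays (limma adjusted p = 0.00119). The part of such cells, or of the fall of Hoxb13, in the results below was not tested.

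Promoter windows from RefSeq (GRCm38.p6, 250 bases before to 50 after a start) were available for 7 of the 10 genes, as 10 windows. They were searched for the full androgen response element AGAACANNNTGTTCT and for its single repeat, AGAACA on one strand or TGTTCT on the other, which is part of the full element. No window of these genes held the full element, which is present in 0.00913% of 32851 windows. A single repeat was found in 1 of the 7 genes, Abcc4, while 21.3% of all 27025 genes with a window hold one. The windows printed here are those of the 2 genes with the largest falls in castrated arrays, with that repeat in capitals, and of Steap4, whose mean was higher there. No match says only that these letters are not in this window.
Fkbp5, chr17:28486100-28486399, minus strand: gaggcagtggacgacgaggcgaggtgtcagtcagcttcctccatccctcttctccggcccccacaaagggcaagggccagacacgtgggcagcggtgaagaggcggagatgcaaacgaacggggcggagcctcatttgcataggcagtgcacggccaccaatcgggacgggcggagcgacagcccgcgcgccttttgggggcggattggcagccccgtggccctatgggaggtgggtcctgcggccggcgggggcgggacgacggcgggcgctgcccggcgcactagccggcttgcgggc
Abcc4 upstream start, chr14:118706170-118706469, minus strand: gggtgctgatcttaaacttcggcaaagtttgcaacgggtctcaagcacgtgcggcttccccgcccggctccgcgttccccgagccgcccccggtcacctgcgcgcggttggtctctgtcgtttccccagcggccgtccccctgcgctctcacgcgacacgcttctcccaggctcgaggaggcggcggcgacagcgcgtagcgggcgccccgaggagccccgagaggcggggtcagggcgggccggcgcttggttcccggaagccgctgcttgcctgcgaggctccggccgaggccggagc
Abcc4 second start, chr14:118676882-118677181, minus strand: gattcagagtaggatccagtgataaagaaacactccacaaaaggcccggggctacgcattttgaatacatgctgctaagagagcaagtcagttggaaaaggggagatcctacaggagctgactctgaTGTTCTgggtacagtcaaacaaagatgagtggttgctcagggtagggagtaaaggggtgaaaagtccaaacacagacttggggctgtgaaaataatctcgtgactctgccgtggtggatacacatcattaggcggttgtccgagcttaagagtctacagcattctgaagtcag
Steap4, chr5:7960222-7960521, plus strand: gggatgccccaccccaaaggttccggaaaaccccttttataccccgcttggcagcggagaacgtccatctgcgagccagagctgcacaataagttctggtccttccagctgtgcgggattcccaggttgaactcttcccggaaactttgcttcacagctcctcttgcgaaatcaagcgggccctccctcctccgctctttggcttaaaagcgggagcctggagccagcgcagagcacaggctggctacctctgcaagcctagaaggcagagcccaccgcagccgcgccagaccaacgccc
In Abcc4 the repeat begins at position -123 from the second start. The window of the upstream start was 72.7% G and C and that of Fkbp5 70.7%, against 47.3% at the second Abcc4 start.

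**Figure D1:**
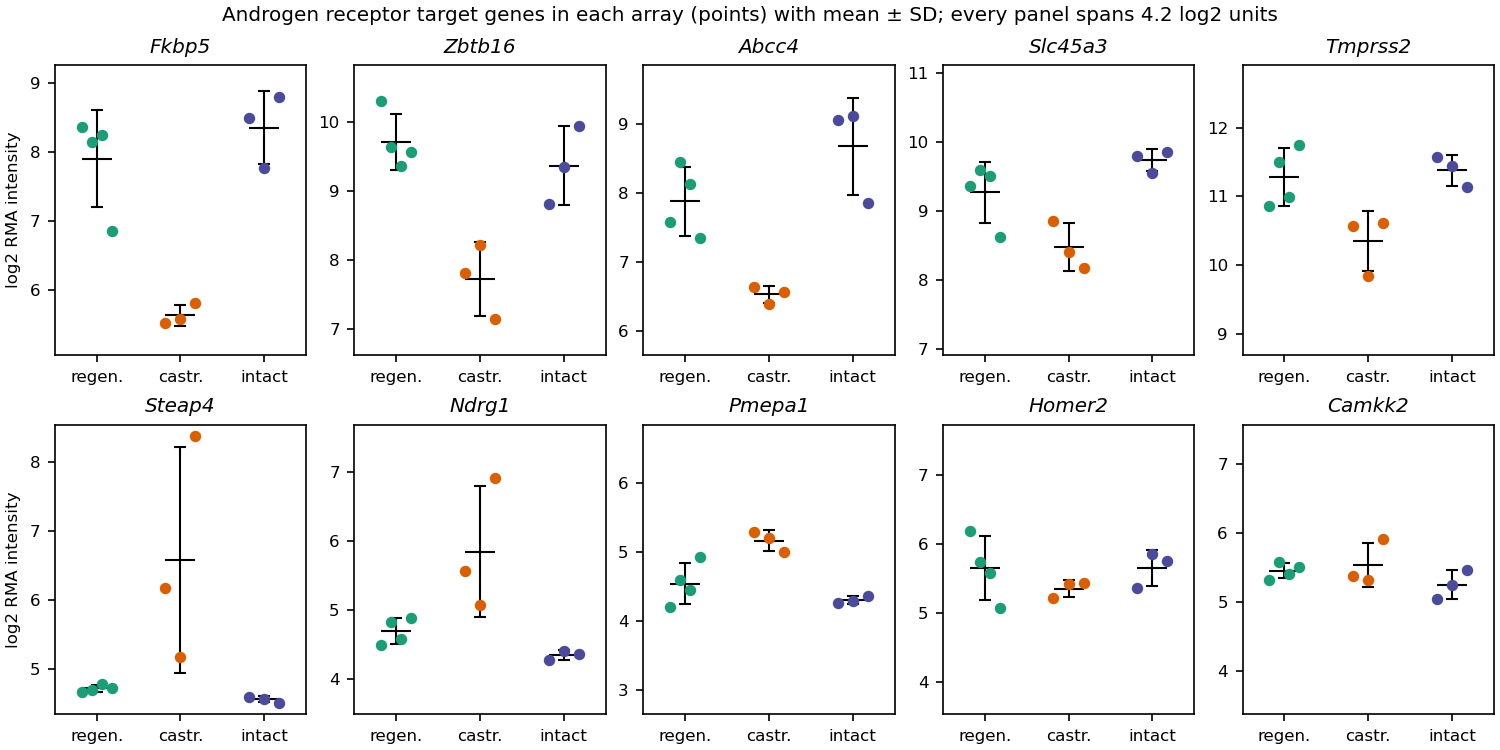
Log2 RMA intensity (y axis) of each of the 10 genes in regenerated (n = 4), castrated (n = 3) and intact (n = 3) arrays; points are arrays and bars are mean ± SD. The first 5 genes have lower means in castrated arrays, Steap4, Ndrg1 and Pmepa1 have higher ones, and the Homer2 and Camkk2 groups overlap.

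The first comparison asks which of these genes differed after 6 weeks without testicular androgen. Of the 10, limma called 4 lower in castrated than in intact arrays (Fkbp5, Abcc4, Zbtb16 and Slc45a3), 2 higher (Ndrg1 and Pmepa1) and 4 not. Among all genes tested 3.19% were called lower and 4.82% higher, 8.01% in all. That split depends on scaling, with 1085 higher and 1185 lower when each array was centred on its median, against 1452 and 962 without it, and the 10 genes kept their directions and calls for castrated against intact under both. Shares over all genes include genes that were dim in every group. With only the 10004 genes that had a group mean above the highest background value, 1424 were called higher and 1210 lower. Of the 10 genes, 1 was then called higher and 5 lower, and 4 were not in that fit. The castrated and intact arrays did not overlap in 8 of the 10, against 28.9% of all genes. The median of the 10 changes was -0.67 log2, against 0.04 over all genes, and the genes spread from -2.72 to 2.02. In sorted bulk RNA, fewer cells of a type and less RNA per cell cannot be told apart.

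**Figure D2:**
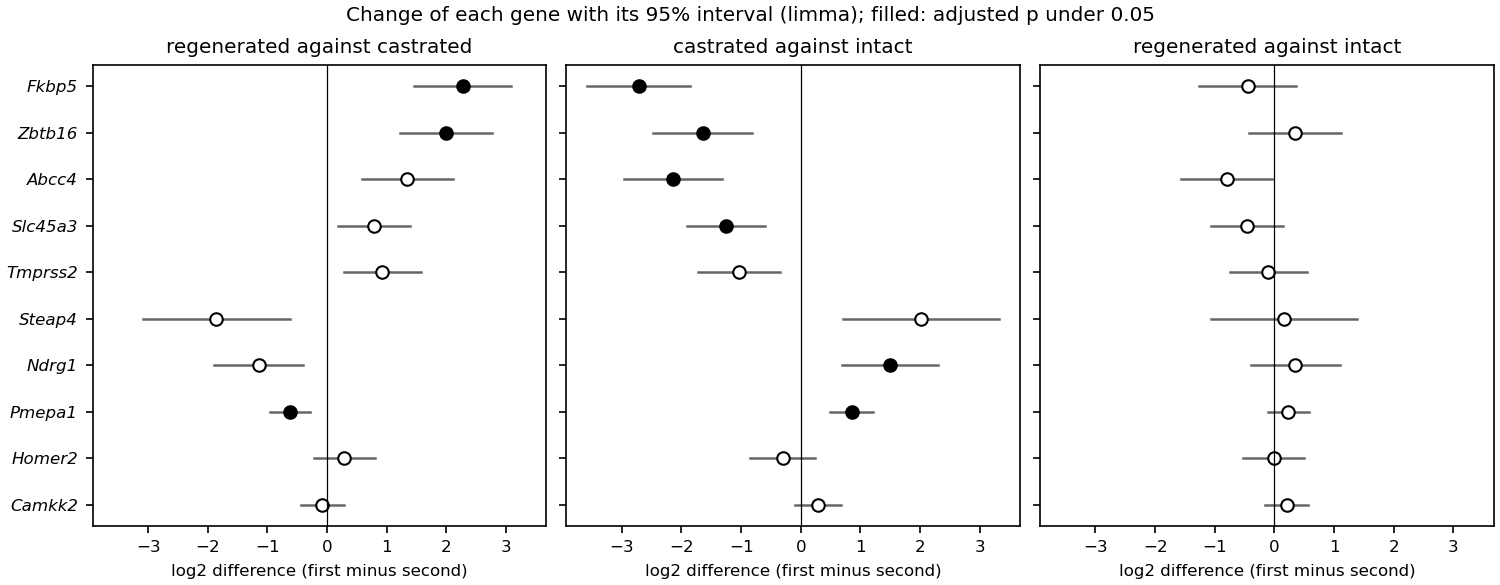
Log2 difference (x axis) of each gene in 3 comparisons, with the 95% interval from limma; filled points have an adjusted p under 0.05. Fkbp5 lies at 2.27 for regenerated against castrated and -2.72 for castrated against intact, and no gene is filled for regenerated against intact.

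The second comparison asks how the genes differed once testosterone had been given for 4 weeks. Fkbp5 and Zbtb16 were called higher in regenerated than in castrated arrays, Pmepa1 lower, and 7 genes were not called. Background shares were 1.97% higher and 3.01% lower, 4.98% in all. With only the 10004 genes that had a group mean above the highest background value, 775 were called higher and 1069 lower. Of the 10 genes, 3 were then called higher and 1 lower. The arrays did not overlap in 7 of the 10 genes, against 16.0% of all genes. Of the 10, 8 had an unadjusted p under 0.05, as did 5707 of all 30142 genes, and the median change was 0.54 log2, against -0.01 over all genes. This comparison uses the same castrated arrays as the first, so that an unusual castrated value moves both, and the values of both are given side by side for each gene. Between regenerated and intact arrays limma called none of the 10, against 0.0365% of all genes (0.0332% higher and 0.00332% lower), and 1 of the 10, Abcc4, had an unadjusted p under 0.05, as did 3019 of all 30142 genes, which is about the same share. The arrays were apart there in Steap4 and Ndrg1, against 9.65% of all genes.

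Fkbp5 encodes a co-chaperone that joins Hsp90 in steroid receptor complexes, and it is induced by androgen, glucocorticoid and progestin in many cells. Its values (transcript cluster TC1700001757.mm.1) were 8.37, 8.15, 8.24 and 6.86 in regenerated, 5.52, 5.58 and 5.81 in castrated and 8.50, 7.77 and 8.80 in intact arrays. The castrated arrays lay within 0.29 of each other and under every other array, and the regenerated arrays other than replicate 4 lay within the intact range. It fell by 2.72 ± 0.39 (SE) log2 in castrated against intact arrays (limma adjusted p = 0.00229). No linear fold is given, since every castrated value was below 6.40, the brightest background control. In regenerated against castrated arrays it rose by 2.27 ± 0.37 log2 (limma adjusted p = 0.00593). Each call was lost under 1 of 22 alternatives, a test against a least change of 1 log2. Against intact arrays the regenerated difference was -0.45, with an interval of -1.26 to 0.36. It was -0.10 without regenerated replicate 4, -0.74 without intact replicate 2 and -0.225 without intact replicate 3.

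Zbtb16, a BTB zinc finger repressor of transcription also known as PLZF, is another gene that both androgen and glucocorticoid induce. It measured 10.29, 9.63, 9.35 and 9.56 in regenerated, 7.80, 8.21 and 7.14 in castrated and 8.80, 9.34 and 9.94 in intact arrays (TC0900002241.mm.1). No castrated array reached the lowest of the others, and 1 regenerated array exceeded all intact ones. The rise in regenerated over castrated arrays was 1.99 ± 0.35 log2, or 3.97-fold (limma adjusted p = 0.00916). In castrated against intact arrays it fell by 1.64 ± 0.37 log2 (limma adjusted p = 0.0228). That second call was lost in 4 of the fits with 1 array fewer, and in the fit with the replicate number as a block (adjusted p = 0.0563). Leaving out the second or the third intact array gave adjusted p = 0.0758 and 0.0704, and leaving out the first or the third castrated array gave 0.0545 and 0.0812. The other call held without each array in turn.

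Abcc4 encodes MRP4, an efflux transporter of cyclic nucleotides, prostaglandins and steroid conjugates. Its values (TC1400002714.mm.1) were 7.59, 8.46, 8.13 and 7.34 in regenerated, 6.64, 6.39 and 6.57 in castrated and 9.06, 9.12 and 7.86 in intact arrays. The castrated arrays were the lowest and the closest together, and intact replicate 3 lay within the regenerated range. Abcc4 fell by 2.15 ± 0.37 log2 in castrated against intact arrays, 4.43-fold (limma adjusted p = 0.00622), which held without each array in turn. The castrated arrays lay close to the highest background value, and replicate 2 just under it, so that fold is approximate. The regenerated mean was 1.35 ± 0.35 log2 above the castrated one, which did not pass (limma adjusted p = 0.0528). It passed without regenerated replicate 4 (1.53 log2, adjusted p = 0.0284) and without intact replicate 3 (adjusted p = 0.022). The regenerated minus intact difference was -0.80 ± 0.35 log2, with an interval of -1.57 to -0.03 and an adjusted p of 0.475 from limma, and without intact replicate 3 it was -1.21 (0.164).

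Slc45a3, or prostein, is a membrane protein of the sugar transporter family that is nearly specific to prostate epithelium in humans. It measured 9.36, 9.59, 9.51 and 8.62 in regenerated, 8.86, 8.41 and 8.17 in castrated and 9.79, 9.55 and 9.85 in intact arrays (TC0100001180.mm.1). Regenerated replicate 4 lay under castrated replicate 1, so those groups overlapped, whereas castrated and intact arrays did not. Slc45a3 fell by 1.25 ± 0.29 log2 in castrated against intact arrays (limma adjusted p = 0.0259). The call was lost when any 1 intact array was left out (adjusted p from 0.0657 to 0.1), and without castrated replicate 2 (0.0839) or castrated replicate 3 (0.0912). For regenerated against castrated arrays the difference was 0.79 ± 0.27 log2 (limma adjusted p = 0.143), and without regenerated replicate 4 it was 1.01 (adjusted p = 0.0222). The regenerated minus intact difference was -0.46, with an interval of -1.07 to 0.14, and it was -0.25 without regenerated replicate 4.

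Tmprss2 encodes a transmembrane serine protease, and its androgen-driven promoter is the common fusion partner of ERG in human prostate cancer. In regenerated arrays it was 10.86, 11.50, 11.00 and 11.75, in castrated arrays 10.58, 9.85 and 10.62 and in intact arrays 11.58, 11.44 and 11.13 (TC1600002152.mm.1). Every castrated array was below every array of the other groups. The castrated minus intact difference was -1.03 ± 0.31 log2, which did not pass (limma adjusted p = 0.0743), though it did without regenerated replicate 4 (adjusted p = 0.0403). The regenerated mean was 0.93 ± 0.29 log2 above the castrated one (limma adjusted p = 0.106). The intervals, -1.72 to -0.34 and 0.28 to 1.57, each leave out 0, but neither p passed adjustment over all genes. Between regenerated and intact arrays the difference was -0.10, with an interval of -0.75 to 0.54, and it was -0.26 without regenerated replicate 4.

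**Figure D3:**
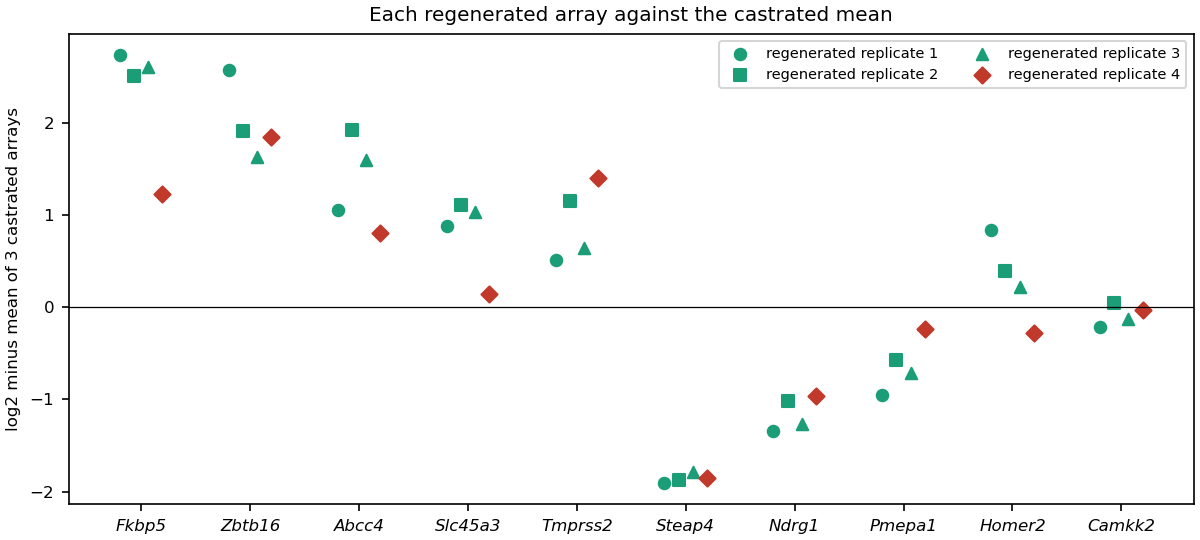
Log2 intensity of each regenerated array minus the mean of the 3 castrated arrays (y axis) for each gene (x axis); red diamonds mark replicate 4. For Fkbp5 replicate 4 lies at 1.23 and the others between 2.51 and 2.73, while for Tmprss2 it is the highest at 1.40.

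Regenerated replicate 4 did not differ from the other regenerated arrays in the same way for all of the 10 genes. It was the lowest of the 4 in Fkbp5, Slc45a3, Abcc4 and Homer2, the highest in Tmprss2, Ndrg1 and Pmepa1, and between the others in 3. Relative to the castrated mean it was 1.23 higher in Fkbp5 and 0.14 in Slc45a3, against 2.51 to 2.73 and 0.88 to 1.11 in replicates 1 to 3. For Zbtb16 it was 1.84 higher, within the 1.63 to 2.57 of those arrays. Pbsn, the probasin gene and a classical androgen target of mouse prostate, was 19.39 in that array and 19.10 to 19.28 in the other 3, while Hoxb13 was 8.26, against 9.61 to 10.27. Pbsn lay near the highest value in the table, 19.93. Other androgen targets of mouse prostate went both ways in replicate 4. Tgm4 was higher there, at 19.40 against 16.78 to 18.63. Azgp1 was lower, at 10.63 against 12.08 to 13.13, as were Odc1 (10.65 against 11.47 to 11.86), Eaf2 (7.16 against 7.81 to 8.03) and Msmb (18.59 against 19.29 to 19.40).

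The 3 genes that follow had their highest means in castrated arrays. Steap4, a metalloreductase of iron and copper that inflammatory cytokines also induce, measured 4.68, 4.70, 4.79 and 4.73 in regenerated, 6.18, 5.18 and 8.38 in castrated and 4.60, 4.58 and 4.51 in intact arrays (TC0500000043.mm.1). All castrated arrays exceeded all others, and they ranged over 3.21 log2 among themselves, where the regenerated arrays ranged over 0.12 and the intact ones over 0.08. The castrated mean was 2.02 ± 0.59 log2 above the intact one and did not pass (limma adjusted p = 0.0674), and the regenerated minus castrated difference was -1.86 ± 0.56 log2 (limma adjusted p = 0.0901). Leaving out castrated replicate 3, the highest, gave 1.12 log2 against intact arrays (adjusted p = 0.0262), and leaving out castrated replicate 2, the lowest, gave 2.72 (0.0125). For regenerated against castrated arrays those 2 settings gave -0.95 (adjusted p = 0.0524) and -2.56 (0.0179). The regenerated and intact means lay under the highest background value of 6.40. Castrated replicates 1 and 2 lay under it too, and the castrated mean of 6.58 exceeded it only through replicate 3. The myeloid list averaged 5.55, 4.86 and 4.87 in castrated replicates 1 to 3, and its part in the Steap4 values was not tested.

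Ndrg1 encodes a cytoplasmic protein induced by hypoxia, metal chelation and, in human prostate cells, androgen. Its values (TC1500001657.mm.1) were 4.50, 4.83, 4.59 and 4.89 in regenerated, 5.56, 5.07 and 6.92 in castrated and 4.27, 4.42 and 4.37 in intact arrays. Castrated arrays were all above the others, with replicate 3 the highest, as for Steap4. It rose by 1.5 ± 0.36 log2 in castrated against intact arrays (limma adjusted p = 0.0303). The call was lost when any 1 intact array was left out (adjusted p from 0.0715 to 0.107), and without castrated replicate 3 the rise was 0.96 (0.0124). In regenerated against castrated arrays the difference was -1.15 ± 0.34 log2 (limma adjusted p = 0.0866), and it was -0.61 (0.0845) without castrated replicate 3 and -1.53 (0.0288) without castrated replicate 2.

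Pmepa1 encodes a membrane protein that binds NEDD4-type ubiquitin ligases and holds TGF-beta signalling in check, and androgen raises it in human prostate cancer cells. In regenerated arrays it was 4.21, 4.59, 4.44 and 4.93, in castrated arrays 5.29, 5.20 and 4.99 and in intact arrays 4.27, 4.28 and 4.37 (TC0200005291.mm.1). The castrated arrays were again the highest, and regenerated replicate 4 lay nearest to them. Pmepa1 rose by 0.86 ± 0.16 log2 in castrated against intact arrays (limma adjusted p = 0.0104), which held without each array in turn. It fell by 0.62 ± 0.15 log2 in regenerated against castrated arrays (limma adjusted p = 0.0444). That second call was lost when any 1 array other than regenerated replicate 4 was left out (adjusted p from 0.062 to 0.137). The regenerated minus intact difference was 0.23, with an interval of -0.10 to 0.57, and it was 0.11 without regenerated replicate 4. All 3 group means were under the highest background value, as for Ndrg1, Homer2 and Camkk2.

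Homer2 and Camkk2 showed no difference that passed. Homer2, a scaffold protein of calcium signalling complexes, was 6.19, 5.74, 5.57 and 5.06 in regenerated, 5.21, 5.41 and 5.42 in castrated and 5.36, 5.84 and 5.75 in intact arrays (TC0700003614.mm.1). The groups overlapped in every comparison, and the widest spread was that of the regenerated arrays. Castrated and intact arrays differed by -0.30 log2, with an interval of -0.85 to 0.25 (limma adjusted p = 0.565), and regenerated and castrated arrays by 0.29, with one of -0.22 to 0.80 (0.563). The second difference was 0.11 without regenerated replicate 1 and 0.48 without regenerated replicate 4. Camkk2, a kinase that activates AMPK and CaM kinases and is a strong androgen target in human prostate cancer cells, was 5.33, 5.58, 5.42 and 5.51 in regenerated, 5.38, 5.33 and 5.91 in castrated and 5.05, 5.25 and 5.47 in intact arrays (TC0500003219.mm.1). These groups overlapped as well. The differences were 0.29 in castrated against intact arrays (interval -0.10 to 0.67, limma adjusted p = 0.412) and -0.08 in regenerated against castrated arrays (interval -0.44 to 0.28, adjusted p = 0.853). Without castrated replicate 3, the highest array, they were 0.10 and 0.10 and neither passed, and without intact replicate 1 the first was 0.18.

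**Figure D4:**
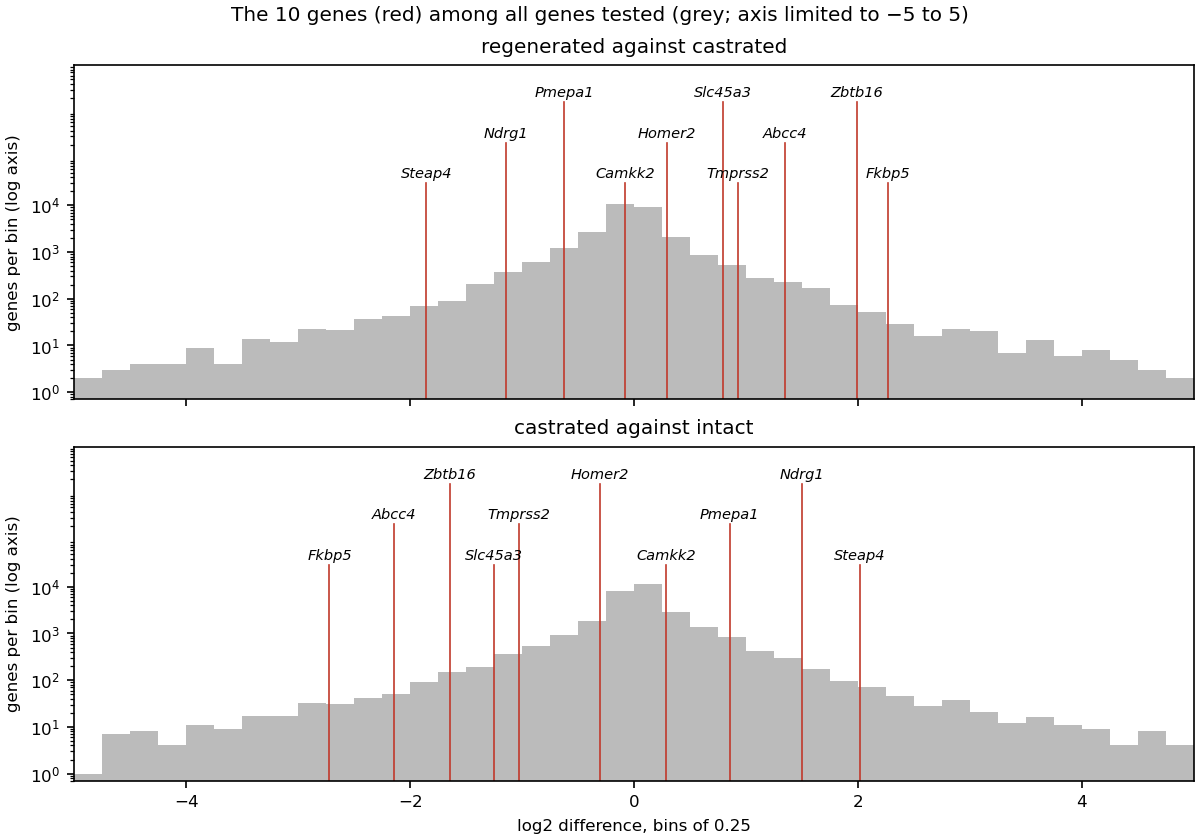
Number of genes (y axis, log scale) by log2 difference (x axis, bins of 0.25) over all 30142 genes tested, cut at -5 and 5, with the 10 genes as red lines. Fkbp5 lies in the tail in both panels, at 2.27 and -2.72, and Camkk2 near the centre, at -0.08 and 0.29.

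By absolute size of change between castrated and intact arrays, Fkbp5 exceeded 99.0% of all genes tested, Abcc4 98.4%, Steap4 98.2% and Zbtb16 97.2%. Camkk2 exceeded 67.7%. The castrated mean of Fkbp5 and the intact mean of Steap4 lay under the highest background value, so their places are approximate. The genes whose pattern over the 10 arrays was most like a member's were found by the root mean square difference after subtracting each gene's intact mean, for members called in both comparisons. Predicted, non-coding, olfactory and vomeronasal symbols and genes not above the highest background value in any group mean were left out, so 7640 genes were compared for Fkbp5 and Zbtb16 and 7641 for Pmepa1. For Fkbp5 these were Tram1, Rab3d and Fah, with root mean square differences of 0.28, 0.29 and 0.33 log2. For Zbtb16 they were Syvn1, Fkbp7 and Alg12 (0.28, 0.33 and 0.38), and for Pmepa1 Uevld, Rad9b and Tanc1 (0.13, 0.14 and 0.15).

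The receptor's partners were looked at next, over a list of 19 genes of which 14 were measured under a single symbol. Between castrated and intact arrays 2 of the 14 fell and 1 rose, and between regenerated and castrated arrays 1 rose and none fell. Hoxb13, which binds DNA beside the receptor, fell by 2.65 ± 0.42 log2 in castrated arrays (limma adjusted p = 0.00416) and was 1.74 ± 0.39 higher in regenerated than castrated arrays (0.0321). The coactivator gene Ncoa1 fell by 1.0 ± 0.23 log2 in castrated arrays (limma adjusted p = 0.0238), and Gata2, a pioneer factor, rose by 1.54 ± 0.38 (0.0319). Foxa1, the main pioneer factor of the receptor in prostate, averaged 12.41 ± 0.32 in regenerated, 11.78 ± 0.73 in castrated and 12.99 ± 0.24 in intact arrays, where castrated against intact did not pass (limma adjusted p = 0.0668).

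Fkbp5 and Zbtb16 also respond to the glucocorticoid receptor, so its gene and other targets were read beside them. Nr3c1, which encodes it, averaged 6.08 ± 0.38 in regenerated, 6.47 ± 0.22 in castrated and 6.37 ± 0.08 in intact arrays and was not called (limma adjusted p = 0.856 for castrated against intact). Of 10 glucocorticoid response genes limma called 2 higher and none lower in castrated against intact arrays, Cebpd by 2.42 ± 0.47 log2 and Cdkn1a by 1.94 ± 0.41. An unadjusted p under 0.05 was found for 4 of the 10, and for 6236 of all 30142 genes. Castrated and intact arrays did not overlap in 5 of the 10, against 28.9% of all genes. Cebpd, Cdkn1a and Errfi1 were higher there and Tsc22d3 and Ddit4 lower. Tsc22d3 was 5.96, 6.06 and 6.03 in castrated and 7.06, 7.17 and 6.98 in intact arrays. In regenerated against castrated arrays Ddit4, an inhibitor of mTOR signalling, rose by 1.83 ± 0.30 log2 (limma adjusted p = 0.00646) and Cebpd fell by 1.86 ± 0.44 (0.037). The estrogen receptor gene Esr1 fell by 0.94 ± 0.23 log2 in regenerated against castrated arrays (limma adjusted p = 0.0407) and rose by 1.65 ± 0.24 in castrated against intact ones (0.00252).

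Programs that also act on Ndrg1, Pmepa1 and Camkk2 were counted in the same fit. Of 12 hypoxia response genes limma called none in castrated against intact arrays. Among them 5 had an unadjusted p under 0.05, as did 6236 of all 30142 genes. The largest differences were 1.48 for Egln3 and -1.22 for Bnip3. Castrated and intact arrays did not overlap in 7 of the 12, against 28.9% of all genes. Vegfa, Bnip3, Egln1, Ldha and Pgk1 were lower in castrated arrays, and Egln3 and Adm higher. Egln3 was 6.51, 6.48 and 9.29 in castrated and 6.09, 5.78 and 5.98 in intact arrays, so castrated replicate 3, the highest for Ndrg1 and Steap4, stood far above the rest. Among castrated arrays replicate 3 was also the highest for Bnip3 (7.86) but the lowest for Egln1 (7.18) and Ldha (8.32). Of 8 TGF-beta response genes 1 rose, the helix-loop-helix gene Id1, by 4.78 ± 0.74 log2 (limma adjusted p = 0.00349). In the Camkk2 pathway list 2 of 10 rose and 1 fell. Prkaa2, a catalytic subunit of AMPK, fell by 3.75 ± 0.48 log2 in castrated against intact arrays (limma adjusted p = 0.00137), and it rose by 1.85 ± 0.45 in regenerated against castrated arrays (0.0428). Prkab2, a regulatory subunit of the same kinase, rose by 2.31 ± 0.43 log2 in castrated against intact arrays (limma adjusted p = 0.00952) and fell by 2.41 ± 0.40 in regenerated against castrated arrays (0.00747). Camkk2 itself was not called in either comparison.

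**Figure D5:**
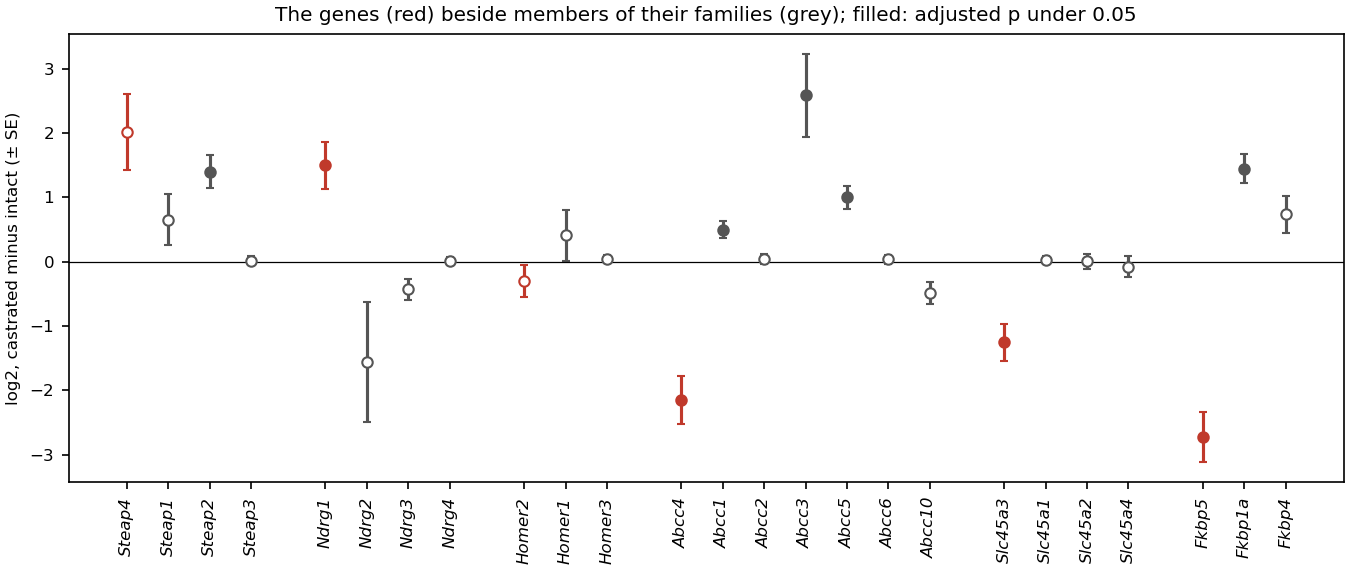
Log2 difference between castrated and intact arrays (y axis, ± SE) for 6 of the genes (red) beside other members of their families (grey); filled points have an adjusted p under 0.05. Abcc4 lies at -2.15 while Abcc3, Abcc5 and Abcc1 lie at 2.58, 1.0 and 0.50.

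Paralogs of the 10 genes did not share their direction throughout. Of 29 measured, 5 rose and none fell in castrated against intact arrays, and in regenerated against castrated arrays 3 fell and none rose. Over all genes 4.82% rose and 3.19% fell in the first comparison, and 3.01% fell and 1.97% rose in the second. Beside Abcc4, which fell, the transporter genes Abcc3, Abcc5 and Abcc1 rose by 2.58 ± 0.64, 1.0 ± 0.18 and 0.50 ± 0.13 log2 (limma adjusted p = 0.0343, 0.00687 and 0.0435). Every value of Abcc5 and Abcc1 was under the highest background value, so their changes are approximate. Fkbp1a, which encodes the small immunophilin FKBP12, rose by 1.45 ± 0.22 log2 in castrated arrays (limma adjusted p = 0.00301), against the fall of Fkbp5. Steap2, another metalloreductase, rose by 1.40 ± 0.26 log2 in castrated against intact arrays (limma adjusted p = 0.00941) and fell by 1.21 ± 0.24 in regenerated against castrated ones (0.0193), the direction that Steap4 showed without passing. It exceeded the highest background value only in castrated replicate 2, at 6.68. Steap1 was 6.17 ± 0.66 in regenerated, 6.28 ± 0.05 in castrated and 5.63 ± 0.70 in intact arrays and was not called. Homer1 fell by 1.71 ± 0.37 log2 in regenerated against castrated arrays (limma adjusted p = 0.0262), where Homer2 was not called. No paralog of Slc45a3 or Ndrg1 was called in either comparison.

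A wider list of androgen response genes, mostly known from human prostate cancer cells and drawn up without the 10, had 76 of 89 measured. In castrated against intact arrays 10 fell, 11 rose and 55 were not called, with a median of -0.06 log2, against 0.04 over all genes. In regenerated against castrated arrays 11 rose, 7 fell and 58 were not called (median 0.06). Over all genes 3.19% fell and 4.82% rose in the first of these comparisons, and 1.97% rose and 3.01% fell in the second. A fit of only the 10004 genes with a group mean above the highest background value gave larger shares. There 15 of the list fell and 10 rose in the first comparison, beside 1210 and 1424 of those genes. In the second 16 rose and 8 fell, beside 775 and 1069. Limma called none of the 76 between regenerated and intact arrays, where 18 had an unadjusted p under 0.05, as did 3019 of all 30142 genes. The largest changes were in Azgp1, which encodes a secreted zinc-binding glycoprotein, at -5.39 ± 0.53 log2 for castrated against intact and 5.43 ± 0.50 for regenerated against castrated (limma adjusted p = 0.000331 and 0.00028). Bmpr1b, a BMP receptor, followed at -5.29 ± 0.41 and 4.12 ± 0.39 (limma adjusted p = 7.43e-05 and 0.000314). The scaffold gene Iqgap2 had -2.93 ± 0.34 and 2.89 ± 0.31, and the desaturase gene Scd1 -3.75 ± 0.65 and 3.00 ± 0.61. Called genes of the wider list lay in both directions, as did those of the 10.

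Genes known as androgen targets from mouse prostate itself were counted apart, with 11 of 12 measured and 2 of them, Azgp1 and Hpgd, also in the wider list. In castrated against intact arrays 6 fell and none rose, against 3.19% and 4.82% of all genes. In regenerated against castrated arrays 7 rose and none fell, against 1.97% and 3.01% of all genes. This list was chosen with earlier results of these data known, so its single direction is a description and no independent test. Spink1, Msmb and Tgm4, all secreted products, had larger differences than any of the 10, and Pbsn did not. Spink1, a trypsin inhibitor of the secretion, averaged 19.72 ± 0.18 in regenerated, 7.92 ± 2.09 in castrated and 19.89 ± 0.01 in intact arrays; the highest value in the table is 19.93. Msmb, a secreted microseminoprotein, averaged 19.16 ± 0.39 in regenerated, 8.25 ± 1.95 in castrated and 17.50 ± 0.44 in intact arrays. Tgm4, the prostate transglutaminase, averaged 17.98 ± 1.24 in regenerated, 7.42 ± 1.74 in castrated and 16.10 ± 0.18 in intact arrays. Pbsn rose by 1.55 ± 0.17 log2 in regenerated against castrated arrays (limma adjusted p = 0.000871), and its castrated minus intact difference of -0.51 did not pass (0.142). Limma called none of the 11 between regenerated and intact arrays, where 5 had an unadjusted p under 0.05, as did 3019 of all 30142 genes. Of 8 androgen-synthesising and inactivating enzyme genes limma called none in either comparison, with 0 at an unadjusted p under 0.05 in castrated against intact and 1 in regenerated against castrated arrays. Every value of these 8 genes was under the highest background value, 6.40, so the lack of a call says little about them. Srd5a1 and Srd5a2 were not measured under a single symbol.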

How the data were processed

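RNA was measured on 10 arrays. The authors deposited log2 values. Per the submitters' processing notes they used Expression Console of Affymetrix and RMA, and versions and the genome build are not given in the sources used here. This method corrects background, gives arrays a common distribution and summarises probes, which can compress changes of dim genes and hide a shift of all genes. Arrays have no sequencing depth, and their number limits the precision. No detection calls were used.

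Rows were named through the platform annotation, with symbols updated by gene identifier against RefSeq. Of 65956 non-control rows, 30604 had 1 symbol. Where more than 1 row carried a symbol (355 genes), the brightest on average stood for the gene, which left 30142 genes. These were fitted with limma 3.58.1 in R 4.3.3 (3 groups, 10 arrays, 7 residual degrees of freedom, eBayes with a mean-variance trend, two-sided), with Benjamini-Hochberg adjustment over all genes and calls at an adjusted p under 0.05. The code was tested on simulated data. The members and lists were chosen with earlier results of these data known. Named genes are the 10 members, up to 4 called genes with the largest change per list and comparison (the 2 largest where none was called), fixed regulators and measured paralogs. Some further marker and response genes are named to show how their list spread. Alternatives left out each array, changed the eBayes step, scaling, weights, row choice and filter, and used the replicate number as a block.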

Additional observations from a re-analysis of the deposited data

Results flagged for a closer look

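In the regenerated arrays Fkbp5 had 1 array far from the others, replicate 4 at 6.86 against 8.15 to 8.37 in the other 3. The gap to its neighbour was 0.85 of the whole range, above the limit used for 4 samples. It was the only flag among the 10 genes tested this way in the regenerated group, and chance flags about 1 in 20 groups. The other groups hold 3 arrays and were not tested. Without that array the regenerated minus castrated difference of Fkbp5 was 2.62 log2, against 2.27 with it.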

How the results depend on the processing

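Of 648 values of the 10 genes under 22 alternatives, 578 kept their direction and side of the threshold, 40 lost a call and 20 gained one. The other 10 changed sign, all with an adjusted p far from the threshold. Camkk2 in regenerated against castrated arrays became 0.10 without castrated replicate 3 and 0.09 without regenerated replicate 4 and castrated replicate 3, a setting chosen after seeing the data. Tmprss2 in regenerated against intact arrays became 0.04 without regenerated replicate 1, and ran from -0.26 to 0.035 over all fits with 1 array fewer. Homer2 in that comparison ranged from 0.01 to 0.18 where it reversed, with 0.09 without intact replicate 2, 0.04 without intact replicate 3, 0.01 without regenerated replicate 3, 0.18 without regenerated replicate 4 alone or with castrated replicate 3, 0.18 with the replicate block and 0.072 with array weights.

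Leaving out 1 array at a time gave 1 to 3 of the 10 genes higher and 2 to 5 lower in castrated against intact arrays, and 2 to 4 higher and 0 to 2 lower in regenerated against castrated arrays. The wider list gave 4 to 11 (12 without regenerated replicate 4 and castrated replicate 3) higher and 6 to 13 lower, then 8 to 15 higher and 3 to 7 lower, and 0 to 1 higher in regenerated against intact arrays. Camkk2 in regenerated against castrated arrays ran from -0.19 to 0.10 over these fits, and Homer2 in regenerated against intact arrays from -0.19 to 0.18. In castrated against intact arrays the count of the 10 called higher was 1 with the background filter, with every row tested and with only the 2 groups compared. In regenerated against castrated arrays the count higher was 4 with array weights. The count lower was 0 without the trend, with median centring, with quantile normalization again, with every row tested and with only the 2 groups, and 2 without regenerated replicate 4 and castrated replicate 3. In the wider list 19 were lower in castrated arrays with array weights and 4 were lower in regenerated arrays with only the 2 groups, while 1 was higher in regenerated than intact arrays with array weights, with the background filter, or without the 2 doubted arrays. A least change of 1 log2 left 0 of the 10 in each comparison and direction, and in the wider list 0 higher and 3 lower in castrated against intact and 4 higher and 0 lower in regenerated against castrated arrays. The cause of these shifts was not tested, apart from the stricter test, which asks for a larger change.

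Replicate numbers are shared across groups, and the labels do not say that they mark a batch. Only 3 of 9 same-numbered pairs correlated above 0.1 (r from -0.16 to 0.26). With so few arrays this cannot exclude a shared batch, and the main fit used no block. The replicate block ended the Zbtb16 call in castrated against intact arrays (adjusted p = 0.0563). Over all genes it called 1555 higher and 1160 lower for castrated against intact, against 1452 and 962 without it.

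Over all genes, leaving out 1 array gave 609 to 1881 higher and 410 to 1390 lower in castrated against intact arrays, and 290 to 1076 higher and 526 to 1051 lower in regenerated against castrated arrays. Array weights gave 2495 higher and 1763 lower, and a least change of 1 log2 gave 125 and 91, in castrated against intact arrays. Background limits Ndrg1, Pmepa1, Homer2 and Camkk2, whose group means were all under 6.40, and also Fkbp5 in castrated and Steap4 in regenerated and intact arrays. Among the castrated arrays, Steap4 exceeded 6.40 only in replicate 3, and Abcc4 was just under it in replicate 2.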
